A study of Mus musculus with 2 samples.

Results

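The genes described here are the nuclear-encoded subunits of mitochondrial complex I, chosen by symbol: every gene named Ndufa, Ndufb, Ndufc, Ndufs or Ndufv with a number, leaving out the assembly factors (Ndufaf) and names that end in -ps. The rule found 37 of the 32285 genes in the files and used no measured value. Their RNA was followed in islet cells of mice by droplet single-cell sequencing, which counts unique molecular identifiers (UMIs), each standing for 1 captured RNA molecule. In the CDS group, DIO mice (the labels' term) had received 10 mg/kg of an agent labelled CDS over 2 weeks, and in the saline group DIO mice had received saline over the same time. The labels do not spell out CDS and do not tie it to the alpha2A-adrenergic antagonist of the series title. Strain, age, sex, the number of mice and any pooling of mice are not given in the labels used here. With a single library (1) per group there is no replicate to check a difference against, and no p-value is given. All 95% intervals cover counting error only.

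Complex I is the entry point of the respiratory chain. It takes electrons from NADH, hands them to ubiquinone and pumps protons out of the mitochondrial matrix, and in beta cells this proton gradient drives the ATP synthesis that links glucose to insulin release. Its matrix arm carries the flavin and the iron-sulfur clusters, and its membrane arm carries the pumping channels. Core subunits do the chemistry and have bacterial counterparts. The core subunits of the membrane arm are encoded by the mitochondrial genome, whereas those of the matrix arm come from nuclear genes. The accessory subunits surround this core and serve assembly and stability. By textbook position the 37 genes comprised 7 nuclear core subunits, 9 accessory subunits of the matrix arm, 9 of the proximal membrane arm and 10 of the distal membrane arm. The remaining 2 symbols carry the family name only: Ndufa4 encodes a protein now assigned to complex IV, and Ndufa4l2 is its paralogue, known as a hypoxia-induced gene.

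The CDS library held 7268 barcodes and 141191447 UMIs, and the saline library 12453 barcodes and 124343325 UMIs. After filters and removal of called doublets, 6159 CDS cells and 10977 saline cells remained, with medians of 19069 and 9794 UMIs and median mitochondrial shares of 1.42% and 2.47%. The libraries shared 25 barcodes, 18 of them among kept cells. The cell type label names islet b cells only, but the RNA of other islet cells was present, so cells were classed by their own marker RNA. This gave 3603 CDS and 4947 saline beta-like cells, 971 and 845 alpha-like, 419 and 468 delta-like, 252 and 342 endothelial-like, and 140 and 147 macrophage-like cells. A further class of 89 CDS and 174 saline cells was gated on Ppy, the pancreatic polypeptide gene. Only 1 of its 3 other markers was highest there in either library, so it is called Ppy-gated. Of the markers that the gates did not use, 6 of 7 were highest in beta-like cells, 4 of 6 in alpha-like and 4 of 4 in delta-like cells, in both libraries. Acinar-like, ductal-like and stromal-like cells, with 33, 39 and 23 CDS cells, were under the minimum of 50 cells and got no ratio between the groups. The same held for B-like cells, with 30 CDS and 958 saline cells, and T-like cells, with 15 CDS and 1055 saline cells, so the libraries differed widely in lymphocytes.

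In beta-like cells, 36 of the 37 complex I genes were higher in the CDS library and 0 were lower. A gene counted as higher where its CDS level was 25% or more above the saline level, and as lower where it was 20% or more below it, provided that the 95% interval of the ratio left out 1. By the same rule 28.0% of all 15309 measured genes were higher and 18.4% were lower. The median ratio of the 37 genes was 2.04, a log2 ratio of 1.03, against a median log2 ratio of 0.06 over all measured genes. Summed over the 37 genes, 528853 CDS UMIs stood against 269877 saline UMIs, a ratio of 2.09 (2.08 to 2.10). Levels are in CPM, UMI counts scaled to a common depth, with TMM scaling, which sets the bulk of genes in a class equal between libraries. Plain CPM lowered the log2 ratio of every beta-like gene by 0.41. On that scale 29 of the 37 genes were higher and 1 was lower, while 9.46% of all genes were higher and 49.0% were lower.

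The nuclear core subunits differed least between the libraries. Ndufs1, the largest subunit and the holder of several iron-sulfur clusters, had 40.9 CPM in CDS beta-like cells and 39.3 CPM in saline beta-like cells, a ratio of 1.04 (0.995 to 1.09). It was the single gene of the 37 that did not pass the rule, and on plain CPM its ratio was 0.785. Ndufv1, which binds NADH and the flavin, had 60.0 CPM in the CDS library and 41.4 CPM in the saline library, a ratio of 1.45 (1.39 to 1.51). Ndufs3 stood highest in this group at 1.84, followed by Ndufs8 at 1.80, Ndufs7 at 1.73 and Ndufv2 at 1.63. The median ratio of the 7 core genes was 1.63.

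All 9 accessory genes of the matrix arm were higher, with a median ratio of 2.18. Ndufa7 had 209 CPM in CDS and 90.2 CPM in saline beta-like cells, a ratio of 2.31 (2.25 to 2.37). The ratios of Ndufa6, Ndufv3, Ndufa2 and Ndufa5 were close together, at 2.24, 2.20, 2.19 and 2.18. Ndufa12 stood at 1.85 and Ndufs6 at 1.70. The lowest ratios of this arm belonged to Ndufs4 and Ndufa9. Ndufs4, whose loss in mice gives a disease like Leigh syndrome, had 114 CPM against 77.2 CPM, a ratio of 1.48 (1.43 to 1.53). Ndufa9, a subunit near the ubiquinone site, had 36.1 CPM against 25.9 CPM, a ratio of 1.39 (1.32 to 1.47).

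The membrane arm held the highest ratios. All 9 genes of the proximal part were higher, with a median ratio of 2.21. Ndufc2 (ENSMUSG00000030647) had 462 CPM in CDS and 177 CPM in saline beta-like cells, a ratio of 2.62 (2.57 to 2.66). Ndufa1, an X-linked gene, stood at 2.45, Ndufs5 at 2.43, Ndufa11 at 2.26, Ndufc1 at 2.21 and Ndufa13 at 2.15. Ndufa13 is also known as Grim19 and shares its strand with the overlapping gene Yjefn3, so its count is less certain. Lower in this group were Ndufa8 at 1.97, Ndufa3 at 1.67 and Ndufa10 at 1.27 (1.22 to 1.32). On plain CPM the ratio of Ndufa10 was 0.957, below 1.

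In the distal part of the membrane arm all 10 genes were higher, with a median ratio of 2.25. Ndufb4 (ENSMUSG00000022820) had the highest ratio of the whole group: 86.0 CPM in CDS and 30.9 CPM in saline beta-like cells, 2.78-fold (2.66 to 2.90). Ndufb3 and Ndufb2 followed, both at 2.52. The ratios of the rest were 2.32 for Ndufb8, 2.27 for Ndufb6, 2.24 for the X-linked Ndufb11, 2.04 for Ndufb7, 1.95 for Ndufb9, 1.91 for Ndufb10 and 1.86 for Ndufb5. In these cells the lowest distal ratio was thus just above the highest core ratio, 1.86 against 1.84. In each other class with ratios the lowest distal ratio was below the highest core ratio. Ndufa4 had 351 CPM in the CDS library and 135 CPM in the saline library, a ratio of 2.59 (2.54 to 2.65). Ndufa4l2 was nearly silent in beta-like cells, with 1.42 CPM against 0.856 CPM, from 123 and 79 UMIs, a ratio of 1.66 (1.24 to 2.23).

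**Figure D1:**
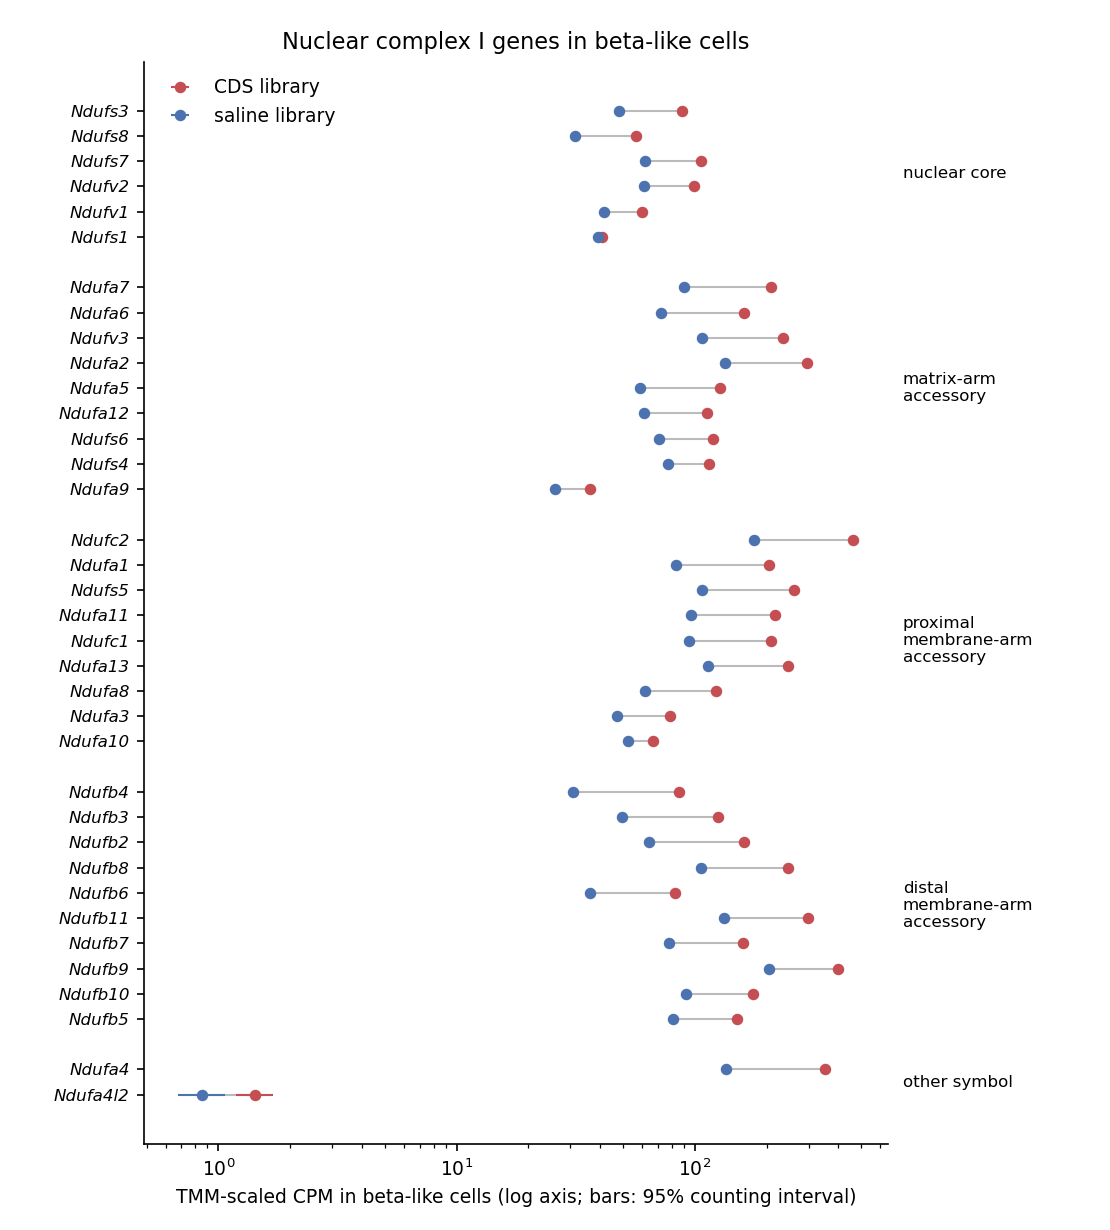
TMM-scaled CPM (log axis) of 36 of the 37 genes in beta-like cells, grouped by place in the complex; red points are the CDS library, blue points the saline library, and bars are 95% counting intervals. The CDS point lies to the right for all 36 genes, and the gap is narrowest for Ndufs1 (40.9 against 39.3 CPM); on plain CPM, not shown, Ndufs1 and Ndufa10 turn round (ratios 0.785 and 0.957).

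The same direction held in the other classes, with smaller ratios on the TMM scale. On plain CPM the order of the top pair turned: the median log2 ratio was 0.68 in alpha-like cells and 0.62 in beta-like cells, and the summed ratio 1.59 and 1.57. In alpha-like cells 33 of 36 measured complex I genes were higher and 0 lower (all genes: 19.8% higher and 12.0% lower), with a median log2 ratio of 0.81. In delta-like cells 32 of 36 were higher and 0 lower (all genes: 16.8% and 12.7%), with a median of 0.69. In Ppy-gated cells 32 of 36 were higher and 0 lower (all genes: 16.9% and 15.6%), with a median of 0.75. In endothelial-like cells 28 of 37 were higher and 1 was lower (all genes: 20.4% and 13.6%), with a median of 0.57. In macrophage-like cells 26 of 36 were higher and 0 lower (all genes: 18.0% and 11.6%), with a median of 0.58. The median log2 ratio over all measured genes lay between -0.02 and 0.07 in these classes. Genes with fewer than 50 UMIs in the 2 libraries together, or with 0 in either, were not measured, which left out Ndufa4l2 in 4 classes. The ratio of the summed counts was 1.75 in alpha-like, 1.60 in delta-like, 1.70 in Ppy-gated, 1.47 in endothelial-like and 1.55 in macrophage-like cells. Plain CPM lowered all log2 ratios by 0.12 to 0.26 in these classes with these counts. In alpha-like cells 30 complex I genes were then higher, beside 12.7% of all genes (22.2% lower), and in delta-like cells 25, beside 10.4% (21.5% lower). In Ppy-gated cells 23 were higher, beside 7.32% (32.6% lower), in endothelial-like cells 19, beside 11.7% (20.8% lower), and in macrophage-like cells 18, beside 10.5% (21.0% lower). The number of complex I genes with any ratio above 1 was 35, 36, 35, 36 and 36 in these classes in that order, and on plain CPM 34, 35, 33, 34 and 31. The share of all genes with a ratio above 1 is not given here.

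A total of 22 complex I genes were higher in all 6 classes and 8 in 5 classes. The share of all genes that were higher in as many classes is not given here, so these counts have no background beside them. Ndufs1 was higher in none and Ndufa10 in beta-like cells only. Ndufs4 and Ndufv1 were higher in 2 classes each. Core genes had the lowest median ratio of the arms in every class, at 1.42 in alpha-like, 1.28 in delta-like, 1.43 in Ppy-gated, 1.22 in endothelial-like and 1.30 in macrophage-like cells. The medians of the accessory arms ran from 1.49 to 1.89 in those classes. The values of the 6 classes are not independent of each other, since each class took its cells from the same 2 libraries.

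Among genes with 200 UMIs or more in a class, the highest ratios in alpha-like cells were those of Ndufa4, with 3235 CDS and 927 saline UMIs and a ratio of 2.33, Ndufa1 at 2.12 and Ndufb4 at 2.10. The lowest there were Ndufs4 at 1.16, Ndufa10 at 1.07 and Ndufs1 at 0.994. In delta-like cells Ndufb3 led at 1.97, followed by Ndufa4 at 1.95 and Ndufb2 at 1.90, and the lowest were Ndufs1 at 1.22, Ndufv1 at 1.09 and Ndufa10 at 1.05. Ndufb2 had the highest ratio in each of the 3 smallest classes. It reached 2.42 in Ppy-gated cells, where Ndufa4 stood at 2.33 and Ndufb4 at 2.19, while the lowest were Ndufb9 at 1.27, Ndufs4 at 1.26 and Ndufa10 at 1.18. Below 200 UMIs in that class, Ndufa9 stood lower, at 0.994 (0.723 to 1.36). In macrophage-like cells Ndufb2 had 156 CDS and 45 saline UMIs, a ratio of 2.65 (1.89 to 3.78). Ndufb4 at 2.18 and Ndufa13 at 2.15 came next in macrophage-like cells, and Ndufa3 at 1.19, Ndufs4 at 1.08 and Ndufs6 at 1.03 came last. In endothelial-like cells Ndufb2 stood at 2.41, Ndufa4l2 at 2.18 and Ndufb4 at 1.96, and the lowest ratios were Ndufa8 at 1.13, Ndufv1 at 1.10 and Ndufa9 at 1.01. The intervals of Ndufb2 were wide in the small classes, from 1.90 to 3.07 in endothelial-like cells.

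Ndufs1 was the exception in direction. In endothelial-like cells it had 70 CDS and 123 saline UMIs, which is 36.3 CPM against 52.8 CPM and a ratio of 0.686 (0.504 to 0.928). In delta-like cells it had 345 CDS and 240 saline UMIs, 60.2 CPM against 49.2 CPM, a ratio of 1.22 (1.04 to 1.45). These are the lowest and the highest ratio of Ndufs1 among the classes, and the gene was picked because its direction differed between them. The intervals of these 2 ratios do not overlap, but that choice made a gap likely. The intervals also cover counting error only, so the gap is no test of a difference between classes. The gene lies on mouse chromosome 1 at 63143596 to 63176833 on the minus strand of GRCm38, and its opposite strand carries parts of Eef1b2 and Ino80dos. Whether reads were counted by strand is not given in the sources used here, so reads of these neighbours cannot be told apart from its own. Such an overlap is not particular to Ndufs1: 14 of the 37 genes overlap a gene on the opposite strand.

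**Figure D2:**
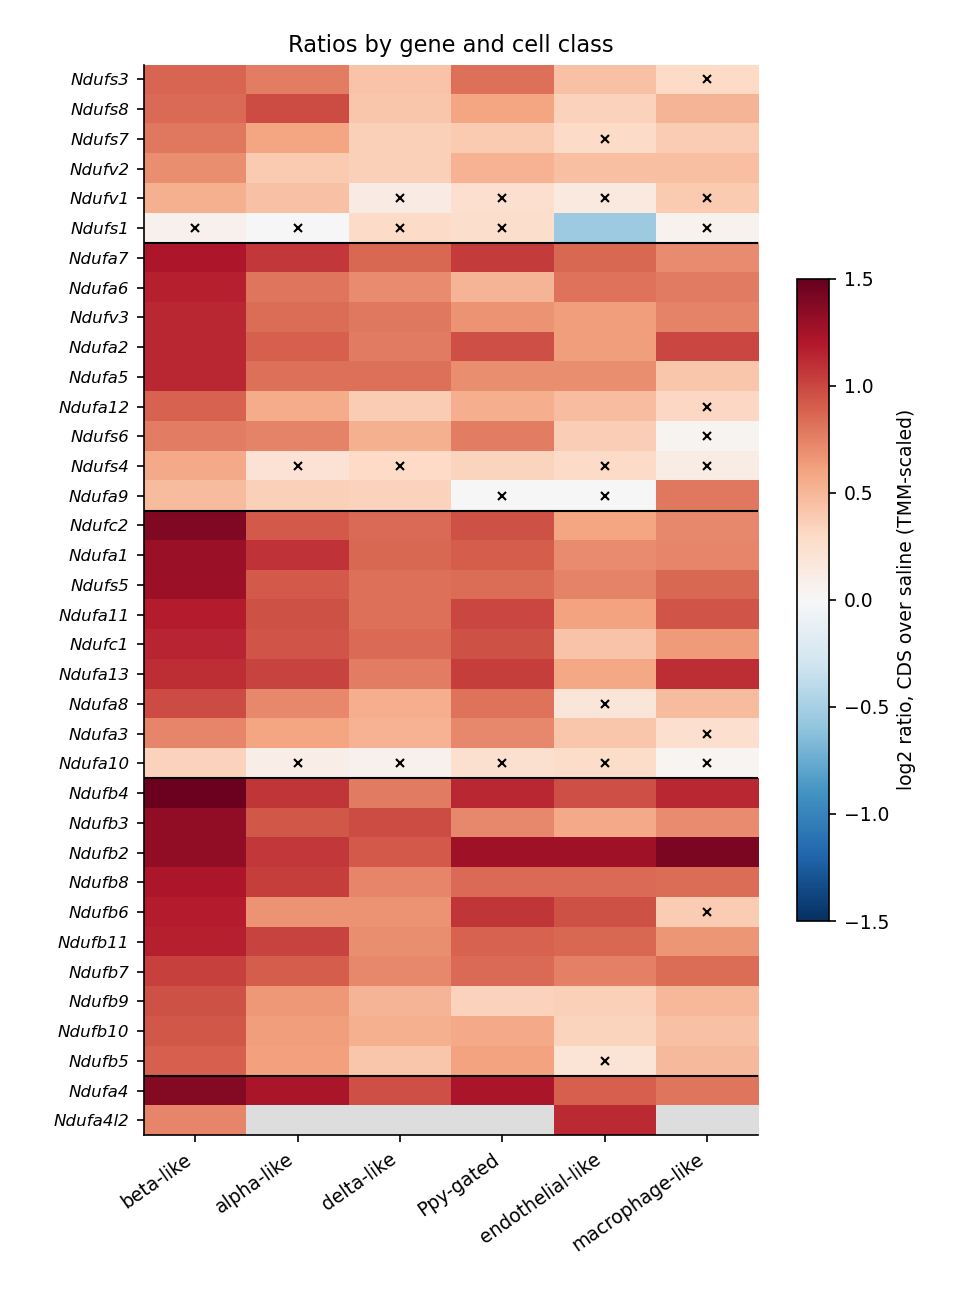
Log2 ratio CDS over saline of 36 of the 37 genes (rows, grouped by place in the complex with black lines between groups) in 6 cell classes (columns); red is higher in CDS, blue is lower, grey was not measured, and a cross marks a gene that was neither higher nor lower by the rule. Crosses gather in the rows of Ndufs1, Ndufv1, Ndufs4 and Ndufa10, and the single clearly blue cell is Ndufs1 in endothelial-like cells (ratio 0.686).

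The 37 genes are mostly short. Their annotated spans ran from 2.188 to 100.464 kb with a median of 7.80 kb, against a median of 12.298 kb over all annotated genes, and 24 spanned under 10 kb. They sit on 15 chromosomes. Across all measured genes in beta-like cells the log2 ratio was lower the longer the span (Spearman rho -0.57, as a description over genes, which are not independent). Among the fifth of genes with the shortest span, 60.1% were higher, and among the fifth with the longest span, 3.66%. The complex I genes showed the same tendency among themselves, with rho at -0.32 for span and -0.62 for the length of the messenger RNA. In the other classes their rho for messenger RNA length ran from -0.64 to -0.44. The core genes, with the lowest ratios, also have the longer coding sequences, and the rho for coding length was -0.61 in beta-like cells. Across all 13250 measured genes with a known messenger RNA length, the rho for that length was -0.52 in beta-like cells. Span alone was then taken into account, by subtracting the running median log2 ratio of genes with like spans. The relation to messenger RNA length was not adjusted for and may remain in the adjusted values.

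After that adjustment the median log2 ratio of the complex I genes in beta-like cells was 0.66, and 33 of 37 were higher, beside 16.6% of all genes. Ndufb4 kept an adjusted log2 ratio of 1.10 and Ndufc2 of 1.05. Ndufs4, with the longest span, had 0.84 after adjustment and 0.57 before it. Ndufs1 had 0.05, and Ndufv1 (0.14), Ndufa4l2 (0.17) and Ndufa3 (0.23) no longer passed the rule. The adjusted counts were 28 of 36 in alpha-like cells (all genes: 10.0%), 20 of 36 in delta-like (9.02%), 25 of 36 in Ppy-gated (10.0%), 14 of 37 in endothelial-like (10.9%) and 13 of 36 in macrophage-like cells (10.7%). Adjusted medians in these classes ran from 0.25 to 0.48. What sets the relation between span and ratio in these libraries was not tested.

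**Figure D3:**
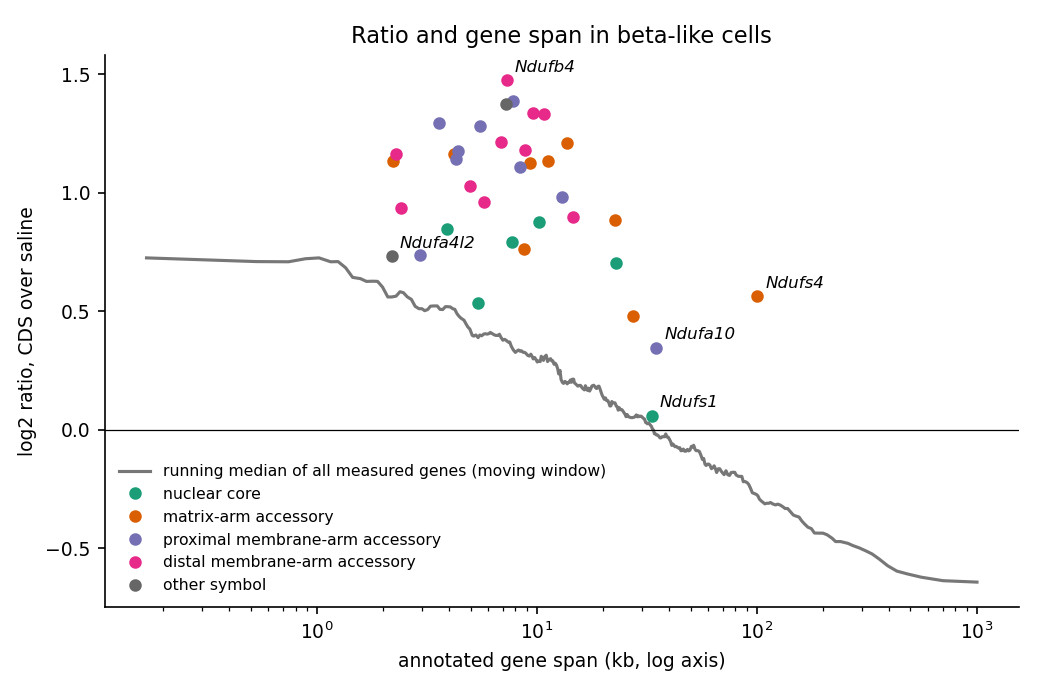
Log2 ratio CDS over saline in beta-like cells against the annotated span of the gene (kb, log axis); points are 36 of the 37 genes, coloured by place in the complex, and the grey line is the running median of all measured genes. All 36 points lie above the grey line, Ndufs1 by 0.05 and Ndufb4 by 1.10.

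As a share of all UMIs of a class, the 37 genes took 0.530% in CDS and 0.337% in saline beta-like cells. Shares were 0.484% against 0.304% in alpha-like, 0.499% against 0.352% in Ppy-gated, 0.473% against 0.355% in endothelial-like and 0.540% against 0.397% in macrophage-like cells. Delta-like cells, which make somatostatin, had the highest share of the 6 classes, with 0.778% in the CDS library and 0.530% in the saline library. Hormone RNA fills much of the count of endocrine cells and dilutes every other gene. Without hormone, acinar enzyme and mitochondrially encoded genes in the denominator, the order changed. Beta-like cells then had 1.04% in the CDS library and 0.589% in the saline library, and delta-like cells 0.972% and 0.655%. Single cells varied widely around these shares. The central 90% of CDS beta-like cells (5th to 95th percentile) lay between 0.323% and 0.802% and that of saline beta-like cells between 0.187% and 0.499%, so the cells of the groups overlapped.

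Depth differed between the libraries, with medians of 27554 UMIs per CDS beta-like cell and 15810 per saline beta-like cell. When the cells of each class and library were split into 3 equal groups by depth, a split added after seeing the data, the lowest of the 3 CDS shares was above the highest of the 3 saline shares in all 6 classes. In beta-like cells the CDS depth groups held 0.538%, 0.538% and 0.523% from shallow to deep, and the saline depth groups 0.308%, 0.334% and 0.352%. In alpha-like cells the share climbed with depth in both libraries, from 0.370% to 0.541% over the CDS depth groups and from 0.254% to 0.326% over the saline depth groups. The mitochondrial share of alpha-like cells went the other way, with medians of 2.88% in the shallowest and 1.66% in the deepest CDS group. In Ppy-gated cells the CDS share declined from 0.614% to 0.449% over the depth groups. With each cell thinned to 3000 UMIs, the shares were 0.529% against 0.332% in beta-like and 0.451% against 0.296% in alpha-like cells, with 154 CDS and 130 saline beta-like cells and 35 and 16 alpha-like cells left out as shallower.

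Counting only cells inside 1 window of depth per class, also added after seeing the data, left 32 complex I genes higher in beta-like cells (1155 CDS and 2262 saline cells), beside 20.8% of all genes, 31 in delta-like cells, beside 17.6%, and 26 in Ppy-gated cells, beside 13.7%. It left 17 of 36 in alpha-like cells (264 and 355 cells), beside 9.53% of all genes, and 14 of 34 measured in endothelial-like cells (61 and 79 cells), beside 18.5%. In macrophage-like cells (53 and 53 cells) 7 of 31 measured complex I genes were higher, beside 16.9% of all genes, a share close to that background. There 1 complex I gene was lower, beside 12.5% of all genes: Ndufs6, with 28 CDS and 49 saline UMIs and a ratio of 0.551 (0.334 to 0.894), named after its value was seen. The ratios themselves were also smaller inside the window, by most in alpha-like and macrophage-like cells. The median log2 ratio of the complex I genes was 0.31 in alpha-like cells, against 0.81 over all depths, 0.29 in macrophage-like cells, against 0.58, and 0.83 in beta-like cells, against 1.03. In delta-like, Ppy-gated and endothelial-like cells it was 0.68, 0.72 and 0.52, against 0.69, 0.75 and 0.57 over all depths.

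Markers of acinar cells, a source of free RNA in islet preparations, summed to more in the CDS library in 5 of the 6 classes, with all 7 markers detected in each. They came to 347 CPM in CDS and 244 CPM in saline beta-like cells, and to 765 and 304 CPM in macrophage-like cells. Delta-like cells were the exception by this sum, with 387 CPM in the CDS library and 958 CPM in the saline library. The median over the 7 markers was alike there, at 36.1 CPM in CDS and 35.3 CPM in saline delta-like cells. The 6 T cell markers summed to 0.431 to 5.31 CPM over the 6 CDS classes and to 4.91 to 19.9 CPM over the 6 saline classes, and were higher in the saline library in each class. The part of either list in the ratios was not tested. With a fold of 1.5 asked for, 19 complex I genes were higher in delta-like cells, beside 7.25% of all genes, and 17 in endothelial-like cells, beside 9.71%. With cells thinned, 17 of the 27 still measured were higher in Ppy-gated cells, beside 13.9%, and 15 of 33 in macrophage-like cells, beside 17.1%, with medians of 0.77 and 0.56 on the log2 scale.

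**Figure D4:**
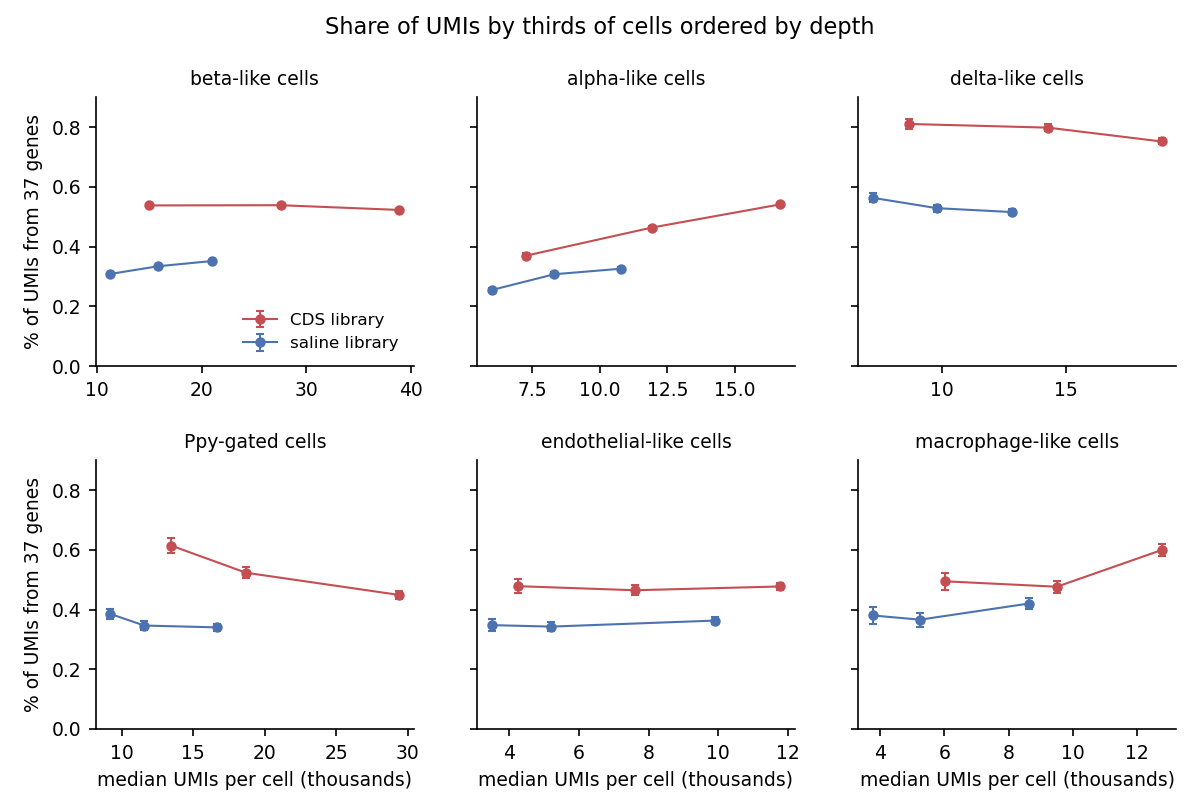
Percent of UMIs from the 37 genes (vertical axis) in 3 groups of cells ordered by depth, against the median UMIs per cell of the group (in units of 1000), for 6 cell classes; red is the CDS library, blue the saline library, bars are exact binomial 95% intervals. In all 6 panels every red point is higher than every blue point, and in alpha-like cells both lines climb with depth.

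Between cell classes the levels of single genes differed mostly by a small factor. Levels here are CPM without hormone, acinar enzyme and mitochondrially encoded genes, each gene compared with itself. In the CDS library 17 of the 37 genes were highest in beta-like and 15 in delta-like cells, and in the saline library 8 were highest in beta-like and 24 in delta-like cells. In the CDS library the lowest class was endothelial-like for 15 genes, macrophage-like for 13 and alpha-like for 9. In the saline library it was alpha-like for 15 genes, endothelial-like for 14 and macrophage-like for 7. The order of the 37 genes within a class was alike in both libraries, with Spearman rho of 0.955 in beta-like, 0.938 in alpha-like and 0.851 in endothelial-like cells.

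After Ndufa4l2, Ndufc2 varied most between classes. In the CDS library it stood at 785 CPM in beta-like, 557 in delta-like, 290 in Ppy-gated, 207 in macrophage-like, 172 in alpha-like and 152 in endothelial-like cells. In the saline library it stood at 355 CPM in beta-like and 331 in delta-like cells, followed by 160 in Ppy-gated, 143 in macrophage-like, 112 in endothelial-like and 98 in alpha-like cells. In that library the intervals of beta-like and delta-like cells met (350 to 361 and 313 to 350), and those of endothelial-like and alpha-like cells overlapped. With hormone and the other removed genes counted, delta-like cells were higher for Ndufc2, at 446 against 401 CPM in beta-like cells of the CDS library. Ndufa13 and Ndufa1 were highest in delta-like and lowest in endothelial-like cells in both libraries, with 501 and 126 CPM for Ndufa13 in the CDS library and 316 and 94 CPM in the saline library. Ndufv3 was highest in beta-like cells, at 400 CPM in the CDS library and 216 CPM in the saline library, and lowest in endothelial-like cells, at 89.9 and 64.6 CPM.

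Ndufa4l2 (ENSMUSG00000040280, chromosome 10, 127514967 to 127517154 on GRCm38) behaved unlike the rest. Among the 6 classes it was found mainly in endothelial-like cells, with 77.4 CPM in the CDS library and 39.3 CPM in the saline library over all UMIs of the class. In CDS endothelial-like cells 24 of 252 held a UMI (9.52%, exact binomial interval 6.20% to 13.8%), and in saline endothelial-like cells 23 of 342 (6.73%, 4.31% to 9.92%). Alpha-like cells were among the lowest classes, with 2 UMIs in 971 CDS cells and 0 in 845 saline cells. Of the deeper beta-like cells, 3.11% in the CDS library and 1.60% in the saline library held an Ndufa4l2 UMI, at 1.23 and 0.986 CPM. Only 3 CDS and 4 saline endothelial-like cells held 50% of its UMIs. Of the 7 CDS cells with 5 or more UMIs, 6 also had at least 2 of 8 stromal markers, and of 5 such saline cells, 4 did. Among CDS cells with 0 UMIs, 6 of 228 had that many stromal markers, and among saline cells, 28 of 319. Stromal-like cells, which include pericytes and fibroblasts by the markers used, had 197 CPM in 23 CDS cells and 67.9 CPM in 85 saline cells. Without endothelial-like cells that held 2 or more stromal markers, a choice made after seeing the data, the level was 17.4 CPM in the CDS library and 15.6 CPM in the saline library. The plain ratio was then 1.11 (0.641 to 1.93), against 1.97 (1.51 to 2.59) over all endothelial-like cells.

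**Figure D5:**
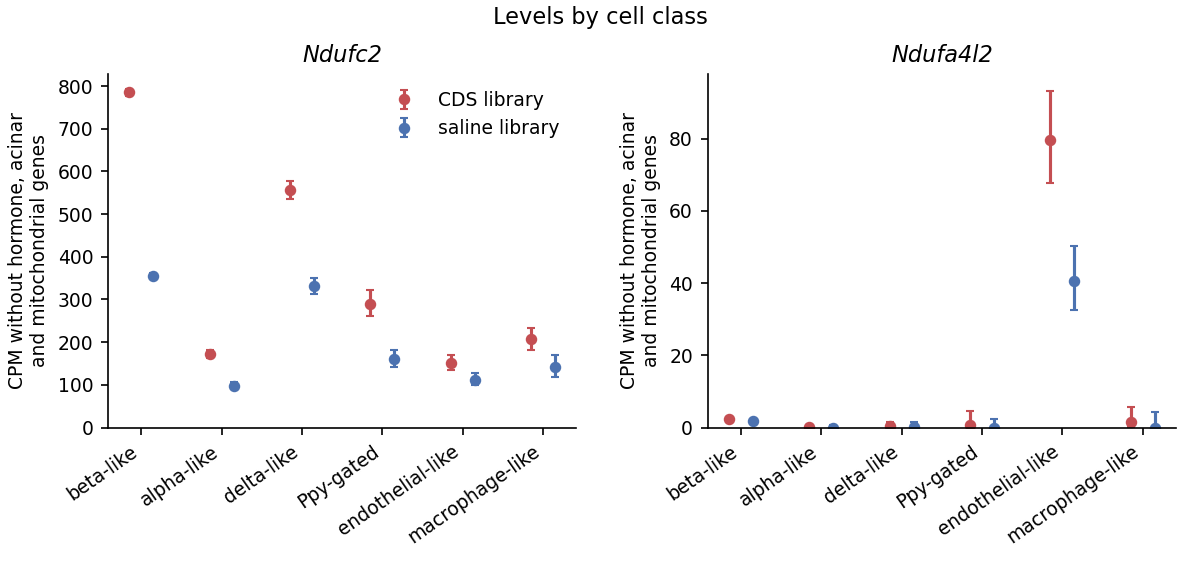
Level of Ndufc2 (left) and Ndufa4l2 (right) in 6 cell classes, in CPM without hormone, acinar enzyme and mitochondrially encoded genes; red is the CDS library, blue the saline library, bars are exact Poisson 95% intervals. Ndufc2 is highest in beta-like cells (785 and 355 CPM), and Ndufa4l2 stands near 0 outside endothelial-like cells.

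The partners of these genes did not all go the same way. The 7 complex I subunits encoded by the mitochondrial genome were lower in CDS beta-like cells, 7 of 7 by the rule, beside 18.4% of all genes. mt-Nd1 had 691 CPM in the CDS library and 963 CPM in the saline library, a ratio of 0.718, and the others ran from 0.466 for mt-Nd6 to 0.788 for mt-Nd4. In the other classes 3 to 6 of these 7 were lower and 0 higher, where 11.6% to 15.6% of all genes were lower. The mitochondrially encoded complex I genes took 0.428% of UMIs in CDS and 0.846% in saline beta-like cells, and the nuclear genes 0.530% and 0.337%. The share of all mitochondrially encoded RNA was lower too, with medians of 1.39% per CDS and 2.55% per saline beta-like cell. Whether the complex I genes differ from the rest of the mitochondrial RNA was not tested. Ndufab1, the acyl carrier subunit that the symbol rule leaves out, stood at 2.12 in beta-like cells, and Ndufb1-ps at 2.01. The assembly factors, which build the complex and are not part of it, differed less as a group. In beta-like cells 9 of 16 were higher and 0 lower (all genes: 28.0% and 18.4%), with a median ratio of 1.28. On plain CPM the median log2 ratio of the assembly factors was -0.06, below 0, and after adjustment for gene span it was 0.19. Ndufaf8 had 61.7 CPM in the CDS library and 27.1 CPM in the saline library, a ratio of 2.28, and Ndufaf4 stood at 1.79, while Ndufaf5 (1.01) and Nubpl (1.03), which helps deliver iron-sulfur clusters, were near 1.

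The nuclear subunits of other respiratory complexes lay beside complex I. In beta-like cells, where 28.0% of all genes were higher, 9 of 9 complex III genes were higher with a median ratio of 2.30. So were 10 of 10 complex IV genes with 2.53, and 15 of 15 ATP synthase genes with 1.85. Adjusted for gene span, their median log2 ratios were 0.64, 0.83 and 0.59. Complex II, which has no mitochondrially encoded subunit, had 3 of 4 genes higher, a median of 1.30, and Sdha at 1.10; on plain CPM its median log2 ratio was -0.03. Among 7 regulators of mitochondrial gene expression 2 were higher and 3 lower in beta-like cells, beside 28.0% and 18.4% of all genes. The count of higher regulators was thus near the share of all genes. Ppargc1a, a coactivator of mitochondrial biogenesis, had 50.1 CPM in the CDS library and 73.0 CPM in the saline library, a ratio of 0.687 (0.661 to 0.714). Nrf1 stood at 0.774, Ppargc1b at 0.778, Esrra at 1.41 and Tfam, which packages mitochondrial DNA, at 1.49. Adjusted for gene span, the log2 ratio went from -0.54 to -0.23 for Ppargc1a and from -0.37 to -0.07 for Nrf1. For Ppargc1b it went from -0.36 to -0.07, for Esrra from 0.50 to 0.19 and for Tfam from 0.57 to 0.34. Over the 7 regulators the median log2 ratio was -0.27 before the adjustment and -0.07 after it.

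The promoters were read from RefSeq windows of GRCm38.p6 that reach 250 bases upstream of a gene's start and 50 bases downstream of it, and 32 of the 37 genes had one. Nrf1 and the ETS factor Gabpa are known activators of many respiratory chain genes. The motif of Nrf1, the letters GCGCA, any base and GCGC, on either strand, was found in 7 of these 32 genes (21.9%) and in 5.19% of all 27025 genes with such a window. The ETS motif CCGGAAG was found in 4 of 32 (12.5%) and in 9.93% of all genes. The letters AAGATGGC, the core of the YY1 motif, were found in 7 of 32 (21.9%) and in 3.19% of all genes, and GGGCGG of Sp1 in 14 of 32 (43.8%) and in 38.2%. The letters TATAAA were found in 4 of 32 (12.5%) and in 15.7%. Motifs overlapped each other in 1 of 34 member windows. These are matches of letters and do not show binding. The genes with the Nrf1 motif were Ndufb4, Ndufs5, Ndufa11, Ndufa6, Ndufa5, Ndufa8 and Ndufs6, whose ratios in beta-like cells ran from 1.70 to 2.78.

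Upstream stretches of 5 genes are shown to set promoters with the Nrf1 motif, in capitals, beside those of Ndufc2 and Ndufa10, which lie near the top and near the bottom of the beta-like ratios and hold neither the Nrf1 nor the ETS motif. Each is given 5′ to 3′ on the strand of its gene, 120 bases long, and ends before the gene start given by RefSeq or GENCODE, whichever lies farther upstream. Ndufb4 lies at chr16:37654454-37654573 (minus strand), Ndufs5 at chr4:123718203-123718322 (minus), Ndufa11 at chr17:56717642-56717761 (plus), Ndufc2 at chr7:97399883-97400002 (plus) and Ndufa10 at chr1:92473861-92473980 (minus).
Ndufb4: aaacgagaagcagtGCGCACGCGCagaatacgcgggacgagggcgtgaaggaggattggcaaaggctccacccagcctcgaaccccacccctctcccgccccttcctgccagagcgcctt
Ndufs5: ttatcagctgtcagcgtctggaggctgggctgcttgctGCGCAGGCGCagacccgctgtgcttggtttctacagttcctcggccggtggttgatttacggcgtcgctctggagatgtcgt
Ndufa11: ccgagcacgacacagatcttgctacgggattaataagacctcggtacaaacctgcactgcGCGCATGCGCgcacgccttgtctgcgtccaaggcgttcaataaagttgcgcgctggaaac
Ndufc2: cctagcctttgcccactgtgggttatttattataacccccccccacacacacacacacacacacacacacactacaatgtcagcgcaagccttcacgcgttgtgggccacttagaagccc
Ndufa10: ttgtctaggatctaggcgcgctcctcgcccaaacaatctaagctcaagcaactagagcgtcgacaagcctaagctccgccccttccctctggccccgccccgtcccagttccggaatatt
Further Nrf1 matches of Ndufb4 lie downstream of the stretch shown. The highest ratio (Ndufb4, 2.78) belonged to a gene with the Nrf1 motif and the next (Ndufc2, 2.62) to a gene without it, whose stretch holds a run of CA repeats.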

How the data were processed

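The authors deposited raw UMI counts per gene and barcode. Counting used Cell Ranger 7.1.0, per the file headers, and the build was mm10, per the submitters' processing notes, which also name Seurat 4 and edgeR. Whether intron reads were counted is not given in the sources used here, and the protocols name both the v3.1 and the v2 chemistry. Everything after the counts was computed for this account. The genes, gene lists, gates and tests were chosen with earlier results of these data known. A barcode was kept if it had 500 or more genes, 1000 or more UMIs and no more than 20% mitochondrial UMIs, and Scrublet (Scanpy 1.11.5) called 256 CDS and 614 saline doublets, which were removed. Endocrine cells were gated by shares of hormone UMIs (insulin 15%, glucagon 2%, somatostatin 1%, Ppy 3%), with upper limits on other hormones. Alpha-like and delta-like cells had no upper limit on Ppy, so Ppy-rich cells could enter these classes. Acinar-like cells were gated at 5% acinar enzyme UMIs. The other classes needed at least 3 detected markers of a non-endocrine class and 2 more than of any other. UMIs were summed per class and library and scaled with TMM (edgeR 4.0.16). The 95% interval of a ratio is exact and conditional on the gene's total, with Poisson counting (SciPy 1.17.1). Gene positions and spans came from GENCODE on GRCm38, which matched 32158 of 32285 gene IDs, and the running median took 501 genes. The values of 1 of the 37 genes are not reported here, though it stays in the counts and medians. In beta-like cells each other complex I gene is named, in other classes the 3 highest and 3 lowest ratios at 200 UMIs or more, and across classes the 5 genes that varied most; other named genes come from the lists and were picked after their values were seen, as were Ndufs1 and the genes of the promoter display. The ratio and its rule were tested on simulated counts of the beta-like sums (15298 genes) and the macrophage-like sums (6056 genes). In each, 100 of 100 genes raised 2-fold and 100 of 100 genes lowered to a level of 0.5 were recovered. The raised and lowered genes were drawn only from genes with UMI totals well above the minimum of the rule. The simulated noise was Poisson, as the interval assumes. Full recovery was thus likely from the start, and genes with few UMIs or smaller changes were not covered. Of the unchanged genes, 0.994% and 3.23% were called. How far mice or libraries differ by themselves is not known from 1 library per group. These percentages therefore hold for the simulated counts only and are not a rate of false calls in the real libraries. Alternatives are given in the closing section.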

Additional observations from a re-analysis of the deposited data

Results flagged for a closer look

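Ndufs1 stood at a ratio CDS over saline of 0.686 in endothelial-like cells (70 CDS and 123 saline UMIs), where 28 of the other complex I genes were higher, and above 1 in beta-like, delta-like, Ppy-gated and macrophage-like cells (1.04, 1.22, 1.20 and 1.04; on plain CPM 0.785, 1.12, 1.0 and 0.910). It was picked because its direction differed between cell classes. The difference was not tested, since each class comes from the same 1 library per group.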

How the results depend on the processing

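No median log2 ratio of the complex I genes changed sign in any class under the other settings that gave one (14 in 5 classes, 13 in Ppy-gated cells), 1 of them added after seeing the data; it ran from 0.62 to 1.10 in beta-like, 0.31 to 0.82 in alpha-like, 0.36 to 0.74 in delta-like, 0.42 to 0.86 in Ppy-gated, 0.25 to 0.59 in endothelial-like and 0.27 to 0.72 in macrophage-like cells. In beta-like cells 29 to 36 genes stayed past the limit, beside 9.46% to 31.3% of all genes. Elsewhere the count of higher genes moved by over 1.5 times under 4 settings. With gene span, but not messenger RNA length, taken into account it was 20 of 36 in delta-like cells, beside 9.02% of all genes. It was then 14 of 37 in endothelial-like and 13 of 36 in macrophage-like cells, beside 10.9% and 10.7%. In 1 depth window it was 17 of 36 in alpha-like and 14 of 34 in endothelial-like cells, beside 9.53% and 18.5%. In macrophage-like cells it was 7 of 31 in that window, close to the 16.9% of all genes. That window has fewer cells by construction, but the median log2 ratio was lower too in alpha-like (0.31) and macrophage-like cells (0.29); the cause was not tested. With cells thinned it was 17 of 27 measured in Ppy-gated and 15 of 33 in macrophage-like cells, beside 13.9% and 17.1% of all genes. With a fold of 1.5 it was 19 in delta-like and 17 in endothelial-like cells, beside 7.25% and 9.71%. The joint clusters formed no class of Ppy cells, and acinar-like cells were too few, so neither gave a value. Cells added by the looser filter had no doublet call. Shares without hormone, acinar enzyme and mitochondrially encoded genes were 1.04% and 0.589% in CDS and saline beta-like, 0.603% and 0.371% in alpha-like, 0.972% and 0.655% in delta-like, 0.807% and 0.509% in Ppy-gated, 0.488% and 0.368% in endothelial-like and 0.560% and 0.413% in macrophage-like cells. Thinning moved the share beyond its counting interval to 0.332% in saline beta-like, 0.451% in CDS alpha-like, 0.296% in saline alpha-like and 0.524% in CDS Ppy-gated cells. Near the insulin gate, 247 CDS and 294 saline cells had 10% to 20% insulin UMIs. No paired analysis was possible because each group has 1 library. With 1 library per group, mouse, library and treatment cannot be told apart.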
